A study of Mus musculus with 6 samples.

Results

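Adrenomedullin is a peptide hormone, and 5 genes encode the peptide precursor and the proteins of its receptors: Adm, Calcrl, Ramp1, Ramp2 and Ramp3. They were taken by gene name from the 55039 genes counted in epididymal white adipose tissue (eWAT) of tumor-bearing and control mice, and all 5 were among the 17296 genes with enough reads to be tested. The CAC group (cancer-associated cachexia, n = 3) was male C57BL/6 mice that received 5000000 Lewis lung carcinoma (LLC) cells under the skin at 6 to 7 weeks of age, and the CONT group (n = 3) was mice of the same strain, sex and age injected with phosphate-buffered saline alone. Both groups were killed 28 days after the injection, and eWAT of each mouse gave 1 library of polyadenylated RNA. The model is 1 tumor line in 1 strain, and the mice carried no engineered allele according to the sources used here. The genes were chosen by name with their CPM and log2 fold change of CAC over CONT already known, so their own values are given as a description, without a test.

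The peptide made from Adm widens blood vessels, holds the endothelial barrier together and is needed for the growth of blood and lymph vessels. Its receptor is a pair of proteins. The calcitonin receptor-like receptor encoded by Calcrl is a class B G protein-coupled receptor that reaches the cell surface with a receptor activity-modifying protein (RAMP), and the RAMP sets the ligand: RAMP1 gives the receptor for calcitonin gene-related peptide, while RAMP2 and RAMP3 give the AM1 and AM2 receptors for adrenomedullin. The receptor signals mainly through the stimulatory G protein and cyclic AMP. In adipose tissue these proteins are known from vessels, from adipocytes and from the stroma around them.

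Ramp3 stood out among the 5 genes, and the ligand and the shared receptor did not. The level of Ramp3 was 6.12 ± 0.809 CPM (mean ± SD, n = 3) in CONT and 0.656 ± 0.307 in CAC, and Ramp1 was lower by less than 1 log2 unit. CPM is the read count scaled to a common library size. In 2 of the 5 genes, Ramp1 and Ramp3, every CAC library lay below every CONT library, against 10.7% of all genes tested (11.8% lay above, 22.5% in all). Since the 5 genes were chosen with this contrast known, nothing is read from that count. Adm, Calcrl and Ramp2 overlapped between the groups. The plot of levels by library shows these patterns.

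**Figure D1:**
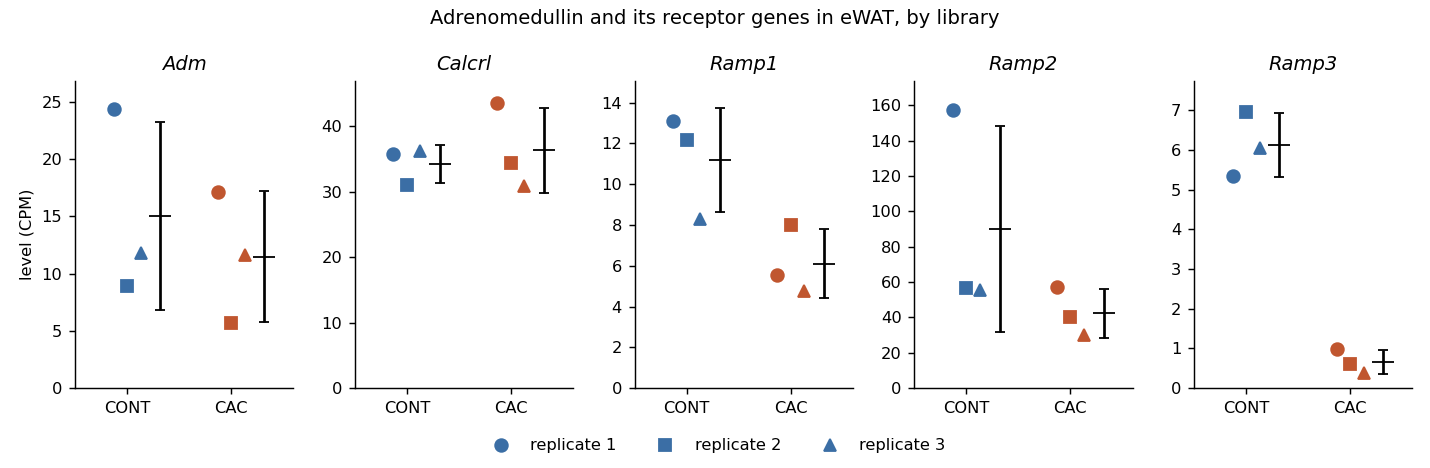
Level of each gene in CPM (linear axes from 0, each with its own scale) in the 3 CONT (blue) and 3 CAC (orange) libraries, with black bars for mean ± SD. The CAC libraries of Ramp3 sit between 0.378 and 0.986 CPM, under CONT libraries of 5.35 to 6.96 CPM, while Adm, Calcrl and Ramp2 overlap between the groups.

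The depth and makeup of the libraries bear on these values. Libraries held 15713794 to 25926425 reads in genes, and 1 CPM stood for 11.2 to 26.5 reads. CONT replicate 1 stood apart from the other libraries, with 30.2% of its reads in mitochondrial genes against 3.89 to 5.04% in the others, so the fold changes of the 5 genes are also given without it. The adipocyte markers were present in every library, with a summed level of 72902 CPM in CONT replicate 1, 29731 and 32783 CPM in the other CONT libraries and 37576 to 54064 CPM in CAC, so the overlap rested on CONT replicate 1. Over all genes, edgeR's quasi-likelihood test called 0 of 17296 genes at an adjusted p under 0.05 (0%), the smallest adjusted p was 0.127, and 2294 genes (13.3%) had an unadjusted p under 0.05, 6.31% higher and 6.95% lower in CAC. DESeq2, the tool of the study, called 959 (5.55%). The median log2 fold change of all genes was -0.06.

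The promoters of the ligand and of the RAMP genes that did not overlap between groups are printed for comparison of their letters. Each line holds RefSeq sequence of GRCm38.p6 from 250 bases before to 50 after the gene start, 5′ to 3′ on the gene's strand, and 4 of the 5 genes had an entry. Capitals mark the GC box GGGCGG and the TATA box core TATAA on either strand, which may overlap. The windows are chr11:6658283-6658582 (plus strand) for Ramp3, chr1:91179572-91179871 (plus strand) for Ramp1 and chr7:110627407-110627706 (plus strand) for Adm.
Ramp3: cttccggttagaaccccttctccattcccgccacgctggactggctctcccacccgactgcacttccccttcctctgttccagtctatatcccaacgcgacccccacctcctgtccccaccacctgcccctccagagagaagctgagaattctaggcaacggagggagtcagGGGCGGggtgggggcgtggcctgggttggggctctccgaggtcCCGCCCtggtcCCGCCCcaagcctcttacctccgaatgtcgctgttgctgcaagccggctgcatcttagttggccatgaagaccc
Ramp1: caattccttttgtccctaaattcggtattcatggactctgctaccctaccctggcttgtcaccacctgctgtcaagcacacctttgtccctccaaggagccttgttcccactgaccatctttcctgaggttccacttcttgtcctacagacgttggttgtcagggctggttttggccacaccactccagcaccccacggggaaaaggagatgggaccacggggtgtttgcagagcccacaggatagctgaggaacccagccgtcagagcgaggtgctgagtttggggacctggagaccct
Adm: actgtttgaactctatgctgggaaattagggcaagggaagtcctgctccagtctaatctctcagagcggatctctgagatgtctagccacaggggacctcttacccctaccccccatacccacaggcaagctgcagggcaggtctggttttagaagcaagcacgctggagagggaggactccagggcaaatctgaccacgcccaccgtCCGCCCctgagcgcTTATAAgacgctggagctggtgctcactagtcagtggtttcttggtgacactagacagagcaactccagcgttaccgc

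Ramp3 has 3 GC boxes, with the start base of each at -78, -35 and -24, and a GC content of 63.7% against a median of 52.7% for all promoters. Of 27025 promoters, 35.9% held a GC box and 10.7% held at least 3. The Ramp1 window has none of these motifs and a GC content of 55.7%. Adm is the single gene of the 4 with a TATA box core, read on both strands within TTATAA at -28, and it also has 1 GC box. A TATA box core was found in 25.5% of promoters. ACGTG, the core of the element bound by hypoxia-inducible factor (HIF), was absent from the 4 windows, and 19.7% of all promoters held it. The Calcrl window on chromosome 2 has 1 GC box. These are matches of letters in a short window and say nothing about a factor at these genes in this tissue.

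Adm (ENSMUSG00000030790, chr7:110627661-110629820, plus strand, GRCm38) encodes the ligand. Its level was 24.3, 8.89 and 11.8 CPM in CONT replicates 1 to 3 and 17.1, 5.65 and 11.6 CPM in CAC replicates 1 to 3. The pooled SD within groups, 0.774 log2 units, was the largest of the 5 genes and larger than the difference between groups, and replicate 1 was the highest of each group. The log2 fold change of CAC over CONT was -0.39 ± 0.53 (SE). Without CONT replicate 1 it was 0.16, so the sign of the difference rested on that library. Without CAC replicate 2 it was -0.05, so its size rested on that library as well. The read counts behind these values were 203 to 273 in CONT and 140 to 416 in CAC. The annotation places the antisense gene Gm28863 over Adm, with 0 exon bases in common and 12 reads over the 6 libraries.

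Calcrl (ENSMUSG00000059588, chr2:84330626-84425411, minus strand) encodes the receptor that all 3 RAMPs share. Its level was 35.8, 31.0 and 36.2 CPM in CONT and 43.6, 34.4 and 30.9 CPM in CAC. Of the 5 genes it varied least between libraries of a group, with a pooled SD of 0.199 log2 units against 0.364 to 0.774 for the others. The log2 fold change was 0.08 ± 0.19 (SE), it was 0.13 without CONT replicate 1, and it lay between -0.03 and 0.19 when each library was left out in turn. CAC replicate 1 was the highest library, and the groups overlapped.

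Ramp1 (ENSMUSG00000034353, chr1:91179822-91225196, plus strand) turns the shared receptor into one for calcitonin gene-related peptide, a product of sensory nerves. Its level was 13.1, 12.2 and 8.32 CPM in CONT and 5.54, 7.99 and 4.76 CPM in CAC. CAC replicate 2 lay just under CONT replicate 3, so the groups were separate by a small margin. The log2 fold change was -0.88 ± 0.34 (SE), and it was -0.73 without CONT replicate 1. The library counts were 126 to 278 reads, and no other gene overlaps Ramp1 in the annotation.

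Ramp2 (ENSMUSG00000001240, chr11:101246028-101259546, plus strand) gives the AM1 receptor, the main adrenomedullin receptor of endothelium. Its level was 157, 56.8 and 55.6 CPM in CONT and 57.3, 40.1 and 29.8 CPM in CAC. CONT replicate 1 stood far above the rest, and CAC replicate 1 lay above CONT replicates 2 and 3. The log2 fold change was -1.08 ± 0.48 (SE) over all libraries and -0.39 without CONT replicate 1. The size of the Ramp2 difference thus rested largely on that library. In the annotation, 1 of the 8 Ramp2 transcripts runs on into Vps25, its neighbour on the same strand, and 1103 of the 3301 exon bases of Ramp2 (33.4%) are also exon bases of Vps25. Vps25, a subunit of the ESCRT-II sorting complex, was listed at 5 to 11 reads per library, so reads of the shared bases cannot be given to either gene with certainty.

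Ramp3 (ENSMUSG00000041046, chr11:6658521-6677475, plus strand) gives the AM2 receptor and also guides the internalised receptor back to the cell surface. Its level was 5.35, 6.96 and 6.06 CPM in CONT, from 60, 159 and 134 reads. In CAC it was 0.986, 0.605 and 0.378 CPM, from 24, 15 and 10 reads. All 3 CAC libraries were below all 3 CONT libraries. Exact 95% Poisson intervals, which cover counting error only, were 4.08 to 6.89 CPM for CONT replicate 1, the lowest of its group, and 0.631 to 1.47 CPM for CAC replicate 1, the highest of its group. The log2 fold change was -3.21 ± 0.50 (SE), which is 9.28-fold higher in CONT. It was -3.28 without CONT replicate 1 and between -3.57 and -2.93 when each library was left out in turn. By log2 fold change Ramp3 was number 119 from the lowest of the 17296 genes, a position that was known when the gene was picked.

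Ramp3 had few reads, at the 22.5th percentile of mean log2 CPM among the genes tested. On the log2(FPKM + 1) scale its difference was -1.72, since the added 1 is larger than every CAC value. Its exons share 101 of 1380 bases (7.3%) with Gm11978, a processed pseudogene on the opposite strand. Gm11978 held 18 reads in CONT replicate 2, 44 in CAC replicate 3 and 0 in the other libraries. CONT replicate 2 had the highest level of Ramp3 and CAC replicate 3 the lowest. The RAMP genes themselves are far apart in sequence. The longest run of identical bases between transcripts was 14 for Ramp1 and Ramp2, 10 for Ramp1 and Ramp3, and 13 for Ramp2 and Ramp3.

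**Figure D2:**
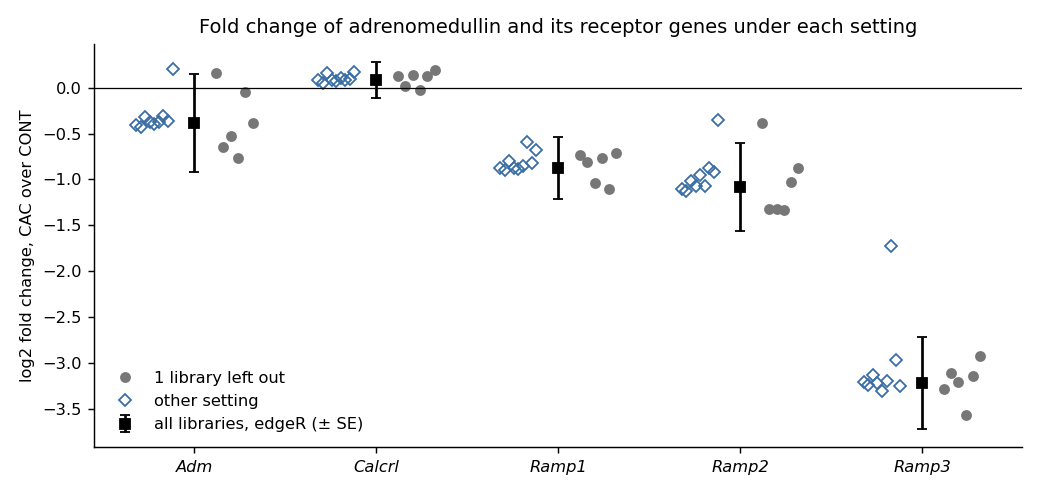
Log2 fold change of CAC over CONT for each gene: black squares give the value from all libraries with SE, grey points leave out 1 library each, and open diamonds are other settings. Ramp3 lies between -3.57 and -2.93 with 1 library left out and at -1.72 on log2(FPKM + 1), Ramp2 moves to -0.39 without CONT replicate 1, and Adm and Calcrl lie on both sides of 0.

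Levels of different genes were set side by side in FPKM, in which the count is divided by the length of the gene and by a library total. Ramp2 had the highest FPKM of the 5 genes in all 6 libraries. Its FPKM was 13.5 to 38.7 in CONT and 7.36 to 14.3 in CAC. Since its reads may include some of Vps25, or may lack those on shared bases, these values are uncertain in either direction. Divided by the exon bases it shares with no other gene, Ramp2 was 20.3 to 58.1 FPKM in CONT and 11.1 to 21.5 FPKM in CAC. Calcrl and Adm came next and changed places: Calcrl was above Adm in CONT replicates 2 and 3 and in CAC replicate 2, and below it in the other 3 libraries. Mean Calcrl was 5.65 ± 0.513 FPKM in CONT and 6.08 ± 1.14 in CAC, and mean Adm was 7.47 ± 4.16 and 5.79 ± 2.93, so these neighbours in the order did not differ beyond their spread in either group. At the bottom, Ramp3 at 3.57 ± 0.442 FPKM and Ramp1 at 2.98 ± 0.686 FPKM were within their spread of each other in CONT, and Ramp3 was above Ramp1 in CONT replicates 2 and 3. In CAC, Ramp1 was 1.65 ± 0.447 FPKM and Ramp3 0.389 ± 0.185 FPKM, with Ramp3 last in every library.

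The makeup of the RAMP pool followed from these levels. Ramp3 made up 6.94, 19.2 and 18.3% of the summed FPKM of the 3 RAMP genes in CONT and 3.59, 2.88 and 2.51% in CAC. The mean share was 14.8% ± 6.84 (SD) in CONT and 2.99% ± 0.546 in CAC, a difference of -11.8 percentage points. CONT replicate 1, with its high Ramp2, had the lowest share of Ramp3 in CONT, and without it the difference was -15.8 points. Ramp2 made up 65.5 to 85.3% in CONT and 79.8 to 87.2% in CAC, and Ramp1 7.76 to 15.3% and 9.22 to 17.4%, so those shares overlapped. For Ramp2 the overlap rested on CONT replicate 1, since CONT replicates 2 and 3, at 65.5 and 70.2%, lay below every CAC library. Without division by gene length the difference in the Ramp3 share was -5.67 points, and with each gene divided by the exon bases it shares with no other gene it was -9.43 points.

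Set against Calcrl, their common partner, the RAMP genes in sum were lower in CAC. The summed RAMP FPKM was 7.63, 4.14 and 3.23 times that of Calcrl in CONT and 2.23, 2.16 and 1.72 times in CAC, with no overlap. The ratio of Ramp3 to Calcrl was 0.529 to 0.796 in CONT and 0.0432 to 0.0800 in CAC. The ratio of Ramp2 to Calcrl was 6.51, 2.71 and 2.27 in CONT and 1.94, 1.72 and 1.43 in CAC. On this scale, which needs no library scaling, Ramp2 did not overlap, though it did in CPM. For Ramp1 the ratio was 0.371 to 0.635 in CONT and 0.206 to 0.375 in CAC, which overlapped by a narrow margin. These are ratios of mRNA and not of receptor complexes. How many of all genes do not overlap on this scale was not counted. Calcrl too was chosen with its values known, so nothing is read from the separation. The Vps25 limit on Ramp2 holds for its ratio and for the sum as well.

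**Figure D3:**
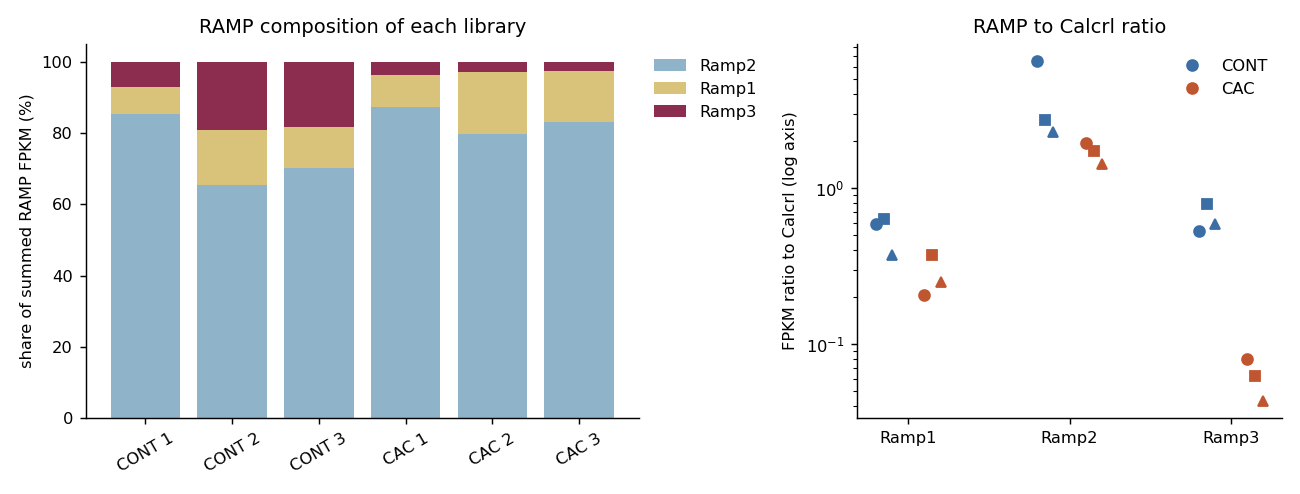
Left, share of each RAMP gene in the summed FPKM of Ramp1, Ramp2 and Ramp3 in each library (bars add to 100%). Right, ratio of each RAMP gene to Calcrl in FPKM on a log axis, with circles, squares and triangles for replicates 1, 2 and 3: Ramp3 is 6.94 to 19.2% of the pool in CONT and 2.51 to 3.59% in CAC, and the Ramp2 and Ramp3 ratios do not overlap between groups.

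Calcrl and Ramp2 are known as genes of endothelium, so the 5 genes were also set against endothelial markers. In bulk tissue, fewer cells of a type and less RNA per cell cannot be told apart. The 16 endothelial markers summed to 2126 to 4612 CPM in CONT and 2878 to 3551 CPM in CAC. The overlap rested on CONT replicate 1, since CONT replicates 2 and 3, at 2126 and 2318 CPM, lay below every CAC library. Of the 16, 2 were higher in every CAC library, against 11.8% of all genes. Pecam1 and Cdh5, 2 of the 16 markers, had log2 fold changes of 0.54 and -0.08, and the 16 ranged from -1.31 to 1.02. Relative to the mean log2 CPM of the 16 markers, Ramp3 was -5.37, -3.94 and -4.26 in CONT and -7.36, -7.62 and -8.39 in CAC, a difference of -3.27. Ramp2 was -0.51, -0.93 and -1.08 in CONT and -1.63, -1.77 and -2.40 in CAC, a difference of -1.09, and its groups did not overlap on this scale. The share of all genes that do not overlap on this scale was not counted either. Ramp1 differed by -1.01 with overlap, Adm by -0.53 and Calcrl by -0.07. The Ramp1 overlap rested on CONT replicate 1, at -4.09 against -4.08 in CAC replicate 2. The Calcrl overlap rested on CONT replicate 1 too, since CONT replicates 2 and 3, at -1.80 and -1.70, lay above every CAC library. Without CONT replicate 1 the differences were -3.69 for Ramp3, -0.93 for Ramp2, -1.22 for Ramp1, -0.45 for Adm and -0.37 for Calcrl. With Pecam1 and Cdh5 alone as the reference, the differences were -3.38 for Ramp3, -1.20 for Ramp2, -1.13 for Ramp1, -0.64 for Adm and -0.18 for Calcrl. Against these 2 genes Ramp1 did not overlap.

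**Figure D4:**
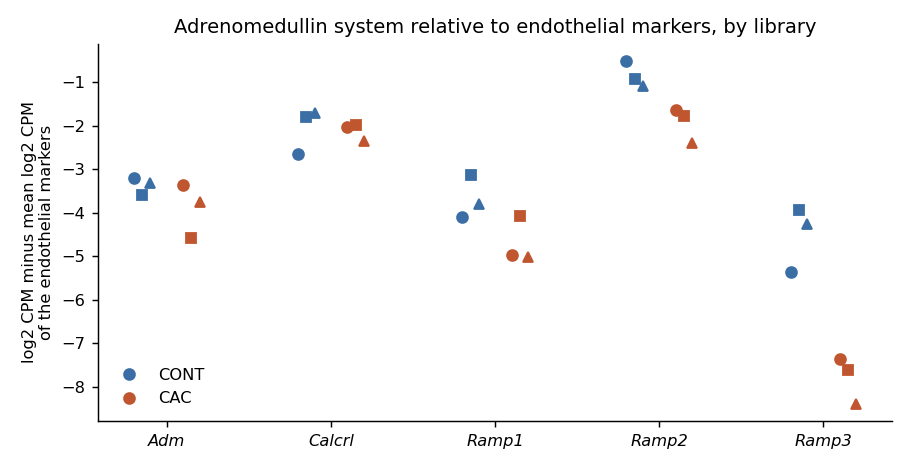
Log2 CPM of each gene minus the mean log2 CPM of the 16 endothelial markers in each CONT (blue) and CAC (orange) library, with circles, squares and triangles for replicates 1, 2 and 3. Ramp2 and Ramp3 do not overlap between the groups, with differences of -1.09 and -3.27, while Calcrl differs by -0.07 (-0.37 without CONT replicate 1).

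Markers of several other cells were at other levels in CAC than in CONT. For each list, the shares of all genes to read its counts against are 10.7% lower and 11.8% higher in every CAC library. The 9 stromal markers summed to 2481 to 3095 CPM in CONT and 1422 to 2317 CPM in CAC, and 6 of the 9 were lower in every CAC library. Among them was the progenitor gene Pi16 with a log2 fold change of -0.86 ± 0.22 (SE), while the proteoglycan gene Dcn, at 0.60 ± 0.27, was higher in every CAC library. Lymphocyte markers (n = 8) summed to 361 to 938 CPM in CONT and 27.7 to 101 CPM in CAC, with 4 lower in every CAC library and 1, the T cell gene Cd3e at 0.54 ± 0.45 on the log2 scale, higher in each. Most of that sum was the immunoglobulin gene Ighm, at 344 to 918 CPM in CONT and 21.7 to 91.5 CPM in CAC. Epididymis markers (n = 8) ranged from 14.0 to 8186 CPM in CONT, highest in replicate 3, and from 0 to 15.9 CPM in CAC, which overlapped. All 6 neutrophil markers were higher in every CAC library, at 161 to 1073 CPM in sum against 5.17 to 57.2 CPM. Lymphatic endothelial markers (n = 6) summed to 76.4 to 160 CPM in CONT and 181 to 188 CPM in CAC, although 1 of them, Pdpn, was lower in every CAC library at -1.16 ± 0.28 (SE) on the log2 scale. The part of these cell types in the RAMP differences was not tested.

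The remaining lists also overlapped in their sums over all libraries. The 10 markers of pericytes and smooth muscle gave 981 to 1177 CPM in CONT and 912 to 1535 CPM in CAC. Of these, 7 had a fold change above 0, as had 7943 of all 17296 genes. The pericyte genes Rgs5 and Cspg4 were lower in every CAC library (10.7% of all genes), with log2 fold changes of -0.66 ± 0.20 and -1.25 ± 0.31 (SE), and Abcc9 was higher in every CAC library (11.8% of all genes), at 0.88 ± 0.41. Macrophage markers (n = 10) gave 528 to 1603 CPM and 795 to 1340 CPM, mesothelial markers (n = 6) 111 to 194 CPM and 62.8 to 201 CPM, and skeletal muscle markers (n = 5) 7.49 to 45.7 CPM and 10.2 to 46.2 CPM, in CONT and CAC. Erythroid markers (n = 5) gave 261 to 5678 CPM in CONT, highest in replicate 1, and 1853 to 2439 CPM in CAC. Without CONT replicate 1 the CONT ranges were 1558 to 1603 CPM for macrophage, 7.49 to 9.27 CPM for muscle and 261 to 392 CPM for erythroid markers, and these 3 lists did not overlap between the groups.

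The rest of the ligand and receptor system was read from a list of 10 genes, of which 6 had enough reads to be tested. In edgeR's fit, 0 of the 6 passed an adjusted p of 0.05, and 1, Gpr182, had an unadjusted p under 0.05, against 6.31% of all genes higher in CAC. The median log2 fold change was 0.11, and DESeq2 called Gpr182 alone (5.55% of all genes were called). Among the ligands, Calca, which encodes calcitonin gene-related peptide and calcitonin, held 11 to 29 reads in CONT and 22 to 66 in CAC, with a log2 fold change of 0.71 ± 0.60 (SE). Adm2, the gene of the related peptide intermedin, held 0 to 3 reads in CONT and 0 to 11 in CAC, and Calcb, Iapp and the calcitonin receptor gene Calcr held at most 2 reads in any library. Among the genes of ligands, only Adm and Calca passed the filter on low counts.

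Gpr182, an atypical chemokine receptor of endothelium once proposed to bind adrenomedullin, was 25.8, 16.8 and 17.7 CPM in CONT and 33.5, 36.2 and 40.9 CPM in CAC. Its log2 fold change was 0.88 ± 0.23 (SE), with an unadjusted p of 0.00691 and an adjusted p of 0.260 by edgeR and an adjusted p of 0.0363 by DESeq2. Ackr3, a receptor that scavenges adrenomedullin, was at 0.17 ± 0.27, Pam, the enzyme that amidates the peptide, at 0.04 ± 0.24, and Crcp, the receptor component protein, at -0.13 ± 0.21 on the log2 scale. Mme, the protease neprilysin that breaks the peptide down, was at -0.26 ± 0.25.

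**Figure D5:**
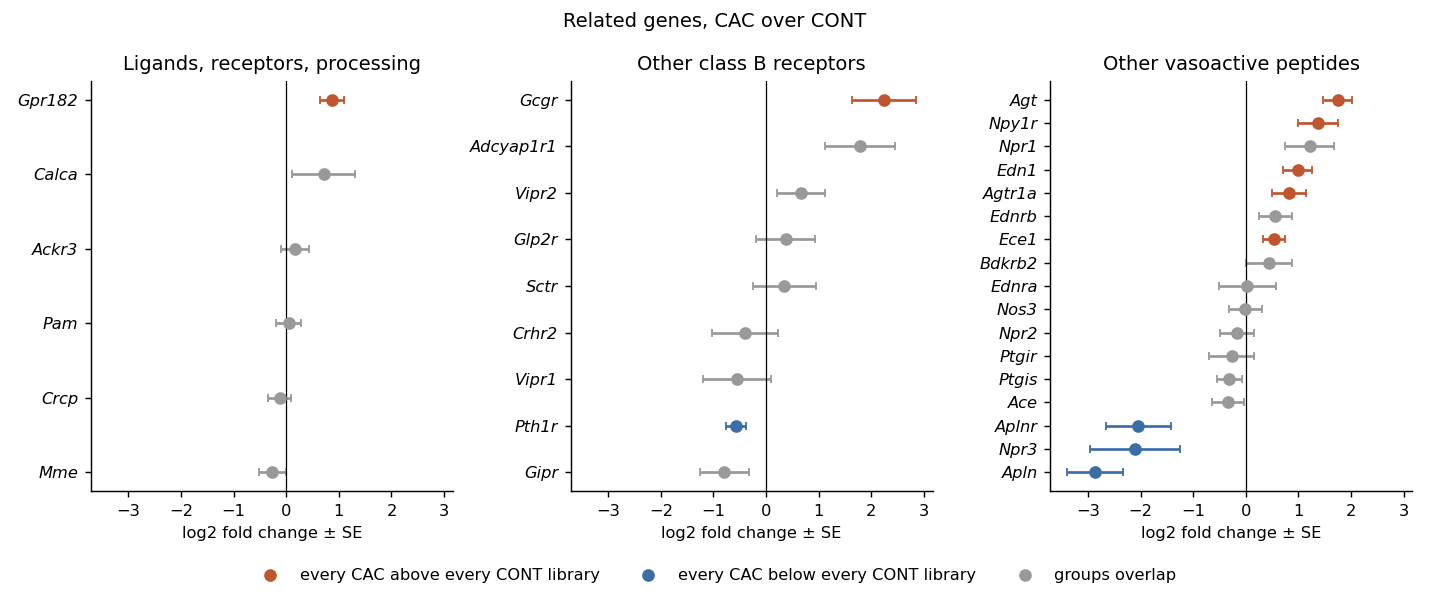
Log2 fold change of CAC over CONT with SE for other genes of the ligand and receptor system (left), other class B receptors (centre) and other vasoactive ligands, receptors and enzymes (right). Orange marks genes with every CAC library above every CONT library, blue the reverse and grey an overlap, and no gene shown passed an adjusted p of 0.05 in edgeR's test.

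Calcrl was compared with the other receptors of its class, which bind peptides such as glucagon and parathyroid hormone. Of 13 such genes, 9 were tested, 0 passed the adjusted p, and 2 higher and 1 lower had an unadjusted p under 0.05 by edgeR, against 6.31% and 6.95% of all genes. The 3 were the glucagon receptor gene Gcgr at 2.24 ± 0.62 (SE) on the log2 scale, the PACAP receptor gene Adcyap1r1 at 1.79 ± 0.66 with overlapping groups, and the parathyroid hormone receptor gene Pth1r at -0.57 ± 0.18. Their adjusted p-values by edgeR were 0.270, 0.338 and 0.297. DESeq2 called 2 genes of the class (5.55% of all genes), Gcgr and the growth hormone-releasing hormone receptor gene Ghrhr, which had too few reads for edgeR's filter, with 2, 64 and 40 reads in CONT and 0, 3 and 0 in CAC (adjusted p of 0.0353 by DESeq2). The median of the 9 was 0.35, and Calcrl at 0.08 lay nearer to the median of all genes.

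Downstream of the receptor, 23 genes of the stimulatory G protein, adenylyl cyclases, protein kinase A and arrestins were tested. By edgeR 0 passed the adjusted p, and 1 higher and 3 lower had an unadjusted p under 0.05 (13.3% of all genes in either direction), with a median log2 fold change of -0.10. Prkaca, the main catalytic subunit of protein kinase A, was 181 to 192 CPM in CONT and 97.5 to 141 CPM in CAC, a log2 fold change of -0.70 ± 0.21 (SE). Arrb2, an arrestin that ends receptor signalling, was at -0.60 ± 0.23, and Creb1, the transcription factor that protein kinase A acts on, at 0.37 ± 0.15. Adcy8, an adenylyl cyclase gene, was 0.535, 37.3 and 35.0 CPM in CONT and 0.340 to 2.34 CPM in CAC, so CONT replicate 1 lay among the CAC libraries. The adjusted p-values of these 4 genes were 0.283 to 0.366 by edgeR, and DESeq2 called 2 of the 23 genes (5.55% of all genes), Adcy8 with an adjusted p of 0.0126 and Prkaca with 0.0497.

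Adrenomedullin is 1 of many signals that act on vessels, and 17 of 25 genes of other vasoactive ligands, receptors and enzymes were tested. By edgeR 0 passed the adjusted p, 6 higher and 3 lower had an unadjusted p under 0.05 (13.3% of all genes), and DESeq2 called 5 (5.55% of all genes). Agt, the angiotensinogen gene, was 200, 171 and 199 CPM in CONT and 519, 553 and 844 CPM in CAC, a log2 fold change of 1.75 ± 0.28 (SE) with an adjusted p of 0.190 by edgeR. Apln, the gene of the vasodilator apelin, was 30.5, 23.0 and 15.1 CPM in CONT and 1.90 to 5.50 CPM in CAC, a log2 fold change of -2.86 ± 0.54 with an adjusted p of 0.215 by edgeR. Edn1, the gene of the vasoconstrictor endothelin, was at 0.98 ± 0.28, and the neuropeptide Y receptor gene Npy1r at 1.37 ± 0.38. Of the 17 genes, 5 were higher and 3 lower in every CAC library, against 11.8% and 10.7% of all genes.

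Adm is known as a gene induced by HIF under low oxygen, and 20 other such genes were tested. By edgeR 0 passed the adjusted p, 4 higher and 1 lower had an unadjusted p under 0.05 (6.31% and 6.95% of all genes), the median log2 fold change was 0.19, and DESeq2 called 4 (5.55% of all genes). Ddit4, an inhibitor of mTORC1 that also answers to glucocorticoids, was 57.4, 49.2 and 64.7 CPM in CONT and 344, 507 and 418 CPM in CAC, a log2 fold change of 2.89 ± 0.25 (SE) with the smallest adjusted p of all genes by edgeR, 0.127. Bnip3, a mitophagy receptor, was at 1.35 ± 0.25, the glucose transporter gene Slc2a1 at 0.93 ± 0.19, and the vessel growth factor gene Vegfa at 1.29 ± 0.43. Of the 20 genes, 5 were higher and 1 lower in every CAC library, against 11.8% and 10.7% of all genes. Adm itself was at -0.39 ± 0.53 with overlapping groups.

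For each of the 5 genes, the 3 genes with the most similar pattern over the 6 libraries were found by the root mean square (RMS) difference of centred log2 CPM, among 17295 candidates. The nearest to Ramp3 were Grb14, an adaptor that dampens insulin receptor signalling, at an RMS of 0.301, Arsi at 0.306 and Pcbd1 at 0.370, with log2 fold changes of -2.74, -2.63 and -2.52. For comparison, the RMS of Ramp3 around its own mean was 1.61. For Ramp2 they were Kbtbd3, Myl6 and AV356131 (RMS 0.104 to 0.109), for Ramp1 Oas1c, Rhpn2 and Arhgap20 (0.0946 to 0.119), for Adm Gm29650, Camk2n2 and Ehd1 (0.150 to 0.223), and for Calcrl Fech, Rgp1 and Ginm1 (0.0490 to 0.0515). The 5 sets shared no gene, and the libraries that set each pattern are the 6 used throughout.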

How the data were processed

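Polyadenylated RNA of eWAT from 3 CAC and 3 CONT mice was sequenced, 1 library per mouse. For alignment the authors used HISAT2 2.0.5 with the Ensembl release 94 mouse reference, and the submitters' processing notes name featureCounts 1.5.0-p3 for counting. Whether strand was used, and how reads on shared exon bases were treated, is not given in the sources used here. The deposited counts are whole numbers without normalization, and the FPKM values deposited beside them are the authors' counts divided by gene length and a scaled library total. Neither step was repeated.

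The main test was the quasi-likelihood test of edgeR 4.0.16 in R 4.3.3 with condition as the only term, run with robust estimation, TMM scaling and the package's own minimum on counts, and adjusted by Benjamini-Hochberg over 17296 genes. DESeq2 1.42.0 on counts and limma 3.58.1 on log2(FPKM + 1) and log2(FPKM + 0.1) were alternatives. CPM is on the TMM-adjusted library size, log2 CPM uses a prior count of 2, and SE is that of the fitted log2 fold change. The p-values measure the spread between these mice. Groups were said not to overlap when all libraries of one lay above all of the other. The fits were tested on simulated data.

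The 5 genes, the lists, their markers and the rules were chosen with earlier results of these data known. Besides the 5 genes and the 10 of the ligand and receptor list, named genes of a list are among the 4 with the smallest unadjusted p under 0.05, or the 2 smallest where none passed, and Pecam1, Cdh5 and the overlapping genes were named for their role. Lep, Dcn, Cd3e, Abcc9 and Ghrhr were named after their values were seen. Lists covered class B receptors, cyclic AMP signalling, vasoactive genes, HIF targets and 12 cell types. Of the list symbols, 2 had more than 1 row and were left out, and 2 were synonyms of genes already listed. One other gene of the ligand and receptor system is not reported here. Genes were placed with GENCODE M21 on GRCm38. Protein sequences were not used here.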

Additional observations from a re-analysis of the deposited data

How the results depend on the processing

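Of 208 alternative values, 187 stayed within the replicate spread or within 1.5 times the count, and 21 moved. The 187 include counts of 0 called genes set against a main count of 0. They also include all 15 alternatives of Adm, although its sign changed in 2, so the tally is not read as stability. Ramp3 was lower in CAC under every setting run, at -1.72 on log2(FPKM + 1) and otherwise within -3.57 to -2.93, and Ramp1 lay between -1.11 and -0.59. Ramp2 was -0.39 without CONT replicate 1 (-1.34 to -0.39 over single libraries left out) and -0.35 by DESeq2 without it, an alternative chosen after seeing the data. Adm lay between -0.77 and 0.20 and was above 0 in the 2 settings without CONT replicate 1, and Calcrl lay between -0.03 and 0.19, below 0 without CAC replicate 1. The Ramp3 share differed by -5.67 points in counts without division by length, and by -15.8 to -9.62 points with 1 library left out. Relative to the endothelial markers, with each library left out in turn (chosen after seeing the data), Ramp3 differed by -3.69 to -2.97, Ramp2 by -1.24 to -0.86, Ramp1 by -1.32 to -0.74, Adm by -0.79 to -0.19 and Calcrl by -0.37 to 0.11.

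Among all genes, edgeR called 0 with any 1 library left out (1384 to 3032 at an unadjusted p under 0.05), 1 with a replicate block, DESeq2 959, DESeq2 without CONT replicate 1 2104, and limma 5 and 6 on log2(FPKM + 1) and log2(FPKM + 0.1). The replicate numbers did not pair the mice (correlations of same-numbered deviations 0.306, -0.15 and -0.22), and with the replicate block the log2 fold changes were -0.39 for Adm, 0.07 for Calcrl, -0.88 for Ramp1, -0.95 for Ramp2 and -3.30 for Ramp3. DESeq2 called 1 gene of the ligand and receptor list, 2 class B receptors, 2 genes of cyclic AMP signalling, 5 vasoactive and 4 HIF genes, and without CONT replicate 1 it called 1, 4, 4, 5 and 5. With 1 library left out, edgeR's counts at an unadjusted p under 0.05 in these lists, in the same order, were 1 to 2, 1 to 4, 0 to 6, 5 to 8 and 3 to 6. limma called 1 HIF gene with either pseudocount. The other settings (RLE or upper-quartile scaling, no filter, a stricter filter) called 0 in each list. Why these counts differ was not tested. Depth limits Ramp3 most, at 10 to 24 reads per CAC library.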
